A study of Mus musculus with 18 samples.

Results

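Gas5 and the Snhg genes are small nucleolar RNA (snoRNA) host genes, and their transcripts after cisplatin are described here. The 9 genes considered were Gas5, Snhg1, Snhg3, Snhg4, Snhg5, Snhg6, Snhg8, Snhg11 and Snhg12. They were named by symbol and not by a rule on measured values, though with earlier results of these data known. A host transcript was taken as the RefSeq noncoding row of its symbol, with 1 row per gene. A row present in both long RNA expression tables was preferred, and then the one of highest mean CPM over the tables. CPM is a count scaled to a common total for every library. Such a row was matched in both long RNA expression tables for 5 genes, Snhg1, Snhg3, Snhg6, Snhg8 and Snhg12, out of 14797 genes in the mRNA table and 13917 in the RNAome table. Gas5, Snhg4, Snhg5 and Snhg11 matched no host transcript row, so their host transcripts are not analysed here, and these genes enter only through rows that lie inside them. A symbol was found for 18274 of 18943 RefSeq rows of the mRNA table and 17133 of 17787 of the RNAome table. Rows of these host transcripts could thus be present under an identifier that was not matched.

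The cells were HPRT-deficient C57BL/6 mouse embryonic stem cells, grown for a pair of passages on feeder cells and then once on gelatin. They were exposed to 2.5 µM of cisplatin, whose platinum forms crosslinks in DNA, or to DMSO as the control, for a time not given in the sources used here. There were 3 cisplatin samples (labelled 8.3.3, 8.4.3 and 8.5.3) and 3 control samples (8.4.16, 8.5.16 and 8.6.16), all of the same deficient genotype. For each of the 6 sample codes there was a poly(A)-selected mRNA library, an RNAome library (total RNA depleted of ribosomal RNA, fragmented, and ligated with small RNA adapters) and a small RNA library, 18 libraries in all. That a code stands for the same RNA in the different assays is not stated in the sources used here. The labels do not say whether the 3 samples of a group were separate cultures, so the p-values rest on a spread between samples that could be technical alone.

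A snoRNA host gene is transcribed and spliced, and the snoRNA is trimmed out of the removed intron and packed into a ribonucleoprotein, while the joined exons leave as a transcript with little coding capacity. C/D box snoRNAs guide 2'-O-methylation of ribosomal RNA and H/ACA box snoRNAs guide its pseudouridylation. Several spliced host transcripts are known substrates of nonsense-mediated decay (NMD), and several start with a run of pyrimidines like the 5' terminal oligopyrimidine (TOP) messages of ribosomal proteins, whose translation follows mTOR activity. A poly(A) library selects RNA with a poly(A) tail, and a library of fragmented total RNA with small RNA adapters can also read the snoRNAs.

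The expression tables held 20365963 to 31604098 counts per mRNA library and 43404675 to 94373096 per RNAome library. On the genes tested, the RNAome libraries held 14691522 to 19331868 counts in the cisplatin samples and 4990978 to 13652052 in the controls, so every control was shallower. Control 8.4.16 stood apart in the RNAome libraries, at 46.0 on the first principal component (38.5% of the variance) against -18.6 to 3.72 for the other libraries. Summed embryonic stem cell markers, all 10 with a row, ran from 2310 to 2426 CPM of the table total in the cisplatin mRNA libraries and from 2553 to 2694 in the controls. Of 12 fibroblast feeder markers 10 had mRNA counts (Lum and Dcn had no row or none), with sums of 21.8 to 40.2 CPM of the table total after cisplatin and 24.6 to 33.5 in the controls. Of 10 markers of differentiated cells 7 had counts (Foxa2, Neurog2 and Cdx2 had none), at sums of 6.54 to 8.95 and 6.87 to 9.05 CPM of the table total, and the part of any of these cells in the results was not tested.

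The snoRNAs of Snhg1 show what the intron rows below hold. Snhg1 spans chr19:8797977-8800816 on the plus strand (mouse build NCBIM37, the same as mm9), and 7 of its introns each hold a single C/D snoRNA, SNORD25 to SNORD31. Capitals mark a C box TGATGA within the first 15 bases and a D box CTGA within the last 15, searched on the snoRNA strand only, in the genome sequence of the GENCODE vM1 entries.
SNORD25: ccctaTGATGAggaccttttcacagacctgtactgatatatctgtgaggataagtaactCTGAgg
SNORD27: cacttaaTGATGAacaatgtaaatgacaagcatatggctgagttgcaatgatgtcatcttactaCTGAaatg
SNORD28: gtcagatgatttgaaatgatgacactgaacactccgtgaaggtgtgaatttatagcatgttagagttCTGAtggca
SNORD29: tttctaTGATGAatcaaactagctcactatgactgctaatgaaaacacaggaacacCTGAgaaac
SNORD30: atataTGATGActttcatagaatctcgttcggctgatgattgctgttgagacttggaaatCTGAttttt
SNORD31: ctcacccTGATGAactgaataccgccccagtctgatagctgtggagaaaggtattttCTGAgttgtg
Both boxes were found in 5 of these 7 snoRNAs (71.4%). SNORD28, printed above, and SNORD26 have the D box but not these C box letters in the window. Of the 1514 snoRNA genes of GENCODE vM1 searched, 258 (17%) held both, and 7 of 32851 promoter windows of 70 bases (0.0213%) did. The 1514 genes were not separated into C/D and H/ACA snoRNAs, so their share is not one of C/D snoRNAs alone. A match of letters is a description and not a test of function.

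In the mRNA libraries cisplatin left 4 of the 5 host transcripts without a detected change, and Snhg3 fell. Values are CPM on the TMM scale (edgeR's scaling for library composition), listed for cisplatin 8.3.3, 8.4.3 and 8.5.3 and then for control 8.4.16, 8.5.16 and 8.6.16, and differences are log2 of cisplatin over control with the standard error. With edgeR's quasi-likelihood test and Benjamini-Hochberg adjustment over 14083 genes, 1 of the 5 members passed an adjusted p of 0.05, and it was lower. Over all genes tested 37.2% passed, 18.0% higher and 19.2% lower. The median of the 5 members was -0.04 and that of all genes 0.01 on the log2 scale.

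**Figure D1:**
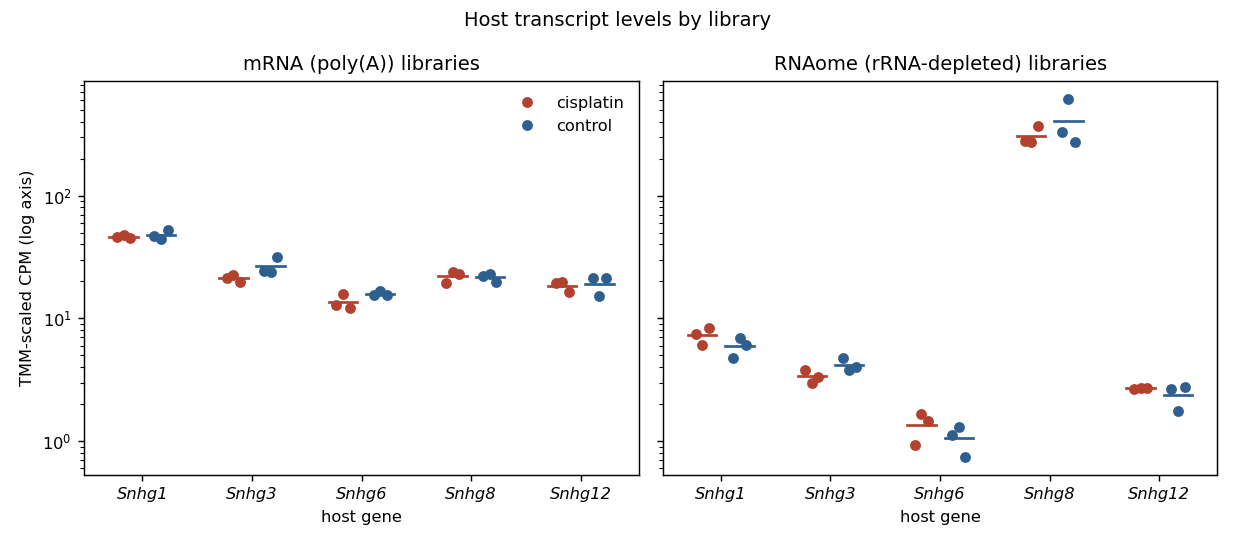
Level of each host transcript in every library, as TMM-scaled CPM on a log axis, for the mRNA libraries (left) and the RNAome libraries (right); points are libraries and short lines the mean of 3. In both assays the 3 cisplatin points of Snhg3 lie under its 3 control points, and those of the other 4 genes overlap.

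Snhg3, host of the H/ACA snoRNAs Snora73a and Snora73b (also known as U17, which acts in ribosomal RNA cleavage), lies at chr4:131907848-131909601 on the minus strand. Its mRNA level was 21.3, 22.6 and 19.6 CPM after cisplatin and 24.5, 23.7 and 31.4 CPM in the controls. Every cisplatin library lay under every control, as for 23.8% of all genes in this direction (48.7% in either). Cisplatin less control came to -0.32 ± 0.11 in log2 units (SE, n = 3 per group, 95% interval -0.56 to -0.08, edgeR adjusted p = 0.0358). The level of Snhg3 fell by 19.9%. Control 8.6.16 was the highest of the 6, and without it the difference was -0.18 (adjusted p = 0.157). The call was also lost without cisplatin 8.3.3 (0.0573), 8.4.3 (0.0537) or 8.5.3 (0.136), and when all rows of the table were tested together (0.0566), while the direction held in each of these fits.

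Snhg1, in the mRNA libraries the most abundant host per base by the row length given below, had 45.7, 47.8 and 45.5 CPM after cisplatin. Its controls had 46.8, 44.1 and 52.5 CPM. The groups overlapped, and the difference was -0.04 ± 0.08 (log2, 95% interval -0.20 to 0.12, edgeR adjusted p = 0.697). Snhg12, host of Snora16a, Snora44, Snora61 and Snord99 and near Snhg3 on chromosome 4, stood at 19.5, 19.7 and 16.4 CPM after cisplatin and 21.2, 15.1 and 21.4 CPM in the controls. Control 8.5.16 was its lowest library, the groups overlapped, and the log2 difference was -0.03 ± 0.13 (-0.32 to 0.25, edgeR adjusted p = 0.868).

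Snhg6, host of the C/D snoRNA Snord87, had mRNA levels of 13.0, 15.7 and 12.2 CPM after cisplatin and 15.5, 16.8 and 15.4 CPM in the controls. Only cisplatin 8.4.3 reached into the control range. The log2 difference was -0.22 ± 0.12 (-0.47 to 0.03, edgeR adjusted p = 0.162). Snhg6 was placed by the gaps between region rows, and its end overlaps the opposite-strand gene 6030422M02Rik. The sources used here do not give the strand setting of the counting, so reads of the overlap cannot be assigned to 1 strand. Snhg8, host of the H/ACA snoRNA Snora24, had 19.2, 23.7 and 23.1 CPM after cisplatin and 21.9, 22.9 and 19.7 CPM in the controls. Its groups overlapped fully, with a log2 difference of 0.03 ± 0.10 (-0.19 to 0.25, edgeR adjusted p = 0.849).

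In the RNAome libraries 0 of the 5 host transcripts passed, with 9978 genes tested and 2.04% of them called (0.972% higher, 1.07% lower). Over all genes 1376 had an unadjusted p under 0.05 and 204 passed after adjustment in edgeR, and DESeq2 called 160 genes and no member. None of the 5 had an unadjusted p under 0.05. The RNAome counts of most members were low, from 6 to 38 for Snhg6, 14 to 61 for Snhg12, 25 to 67 for Snhg3 and 25 to 138 for Snhg1. The standard errors of the 5 members were 0.20 to 0.37 on the log2 scale, against 0.08 to 0.13 in the mRNA libraries, and that of Snhg8, with far more counts, was 0.26.

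Snhg3 again lay lower in every cisplatin RNAome library, at 3.79, 2.96 and 3.36 CPM against 4.73, 3.82 and 4.05 CPM in the controls. Such a separation in this direction was met in 9.12% of genes (19.0% in either). Its log2 difference was -0.30 ± 0.22 (-0.76 to 0.17, edgeR adjusted p = 0.624), near that of the mRNA libraries, and the separation was not kept on the scale of the fit over all rows. Snhg1 had 7.40, 6.10 and 8.36 CPM after cisplatin and 4.73, 6.98 and 6.07 CPM in the controls, with overlap and a log2 difference of 0.25 ± 0.20 (-0.17 to 0.66, edgeR adjusted p = 0.661).

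Snhg12 stood at 2.68, 2.70 and 2.73 CPM in the cisplatin RNAome libraries and at 2.65, 1.77 and 2.77 CPM in the controls. Control 8.5.16 was again its lowest library, and the log2 difference was 0.20 ± 0.26 (-0.34 to 0.75, edgeR adjusted p = 0.823). Snhg6 had 0.933, 1.68 and 1.45 CPM after cisplatin and 1.13, 1.30 and 0.746 CPM in the controls, overlapping, with a log2 difference of 0.36 ± 0.37 (-0.41 to 1.14, edgeR adjusted p = 0.758). With the outlying control 8.4.16 left out, the RNAome log2 differences were 0.13 for Snhg1, -0.23 for Snhg3, 0.39 for Snhg6, -0.54 for Snhg8 and 0.27 for Snhg12, and none passed.

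Snhg8 was the exception among the hosts in the RNAome libraries, with 1742 to 6575 counts. Its levels were 277, 271 and 370 CPM after cisplatin and 329, 612 and 275 CPM in the controls, and control 8.5.16 was the highest. The log2 difference was -0.41 ± 0.26 (-0.96 to 0.15, edgeR adjusted p = 0.552), and without control 8.5.16 it was 0.01. The genomic span of Snhg8, chr3:123210470-123211254 (minus strand), is 785 bases long, and no region row lies inside it. Its row was taken as this whole span, unlike those of the other 4 genes, although the length of the transcript was not read. Whether the transcript is spliced cannot be told from this, since an intron need not have a region row. The span contains Snora24, shown here because most RNAome counts of the row lie in it.
Snora24: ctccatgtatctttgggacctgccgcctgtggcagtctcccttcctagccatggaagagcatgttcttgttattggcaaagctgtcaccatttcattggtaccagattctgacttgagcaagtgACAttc
Capitals mark the ACA box that lies 3 bases before the 3' end in H/ACA snoRNAs. Counts of the Snora24 row made up 76.8% to 79.2% of the Snhg8 counts in the RNAome libraries and 1.27% to 7.96% in the mRNA libraries. In the small RNA libraries the counts of both rows were equal, 55 to 155. With Snora24 subtracted, the log2 difference of Snhg8 was -0.52 ± 0.24 in the RNAome libraries (edgeR adjusted p = 0.330) and 0.06 ± 0.10 in the mRNA libraries (0.681).

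The difference between the cisplatin effects in the 2 long RNA assays was tested as an interaction in 1 fit of the 12 libraries, RNAome effect less mRNA effect on the log2 scale. It was 0.26 ± 0.19 for Snhg1, 0.03 ± 0.23 for Snhg3, 0.60 ± 0.36 for Snhg6, -0.44 ± 0.31 for Snhg8 and 0.25 ± 0.29 for Snhg12. None of the 5 passed (edgeR adjusted p = 0.854 to 0.995), and neither did any of the 13069 genes tested, a background of 0%, of which 769 had an unadjusted p under 0.05. Without RNAome control 8.4.16 42 genes passed, and no member was among them. The widest interval, that of Snhg6, ran from -0.16 to 1.35, so opposite or equal responses of the assays cannot be separated for it.

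**Figure D2:**
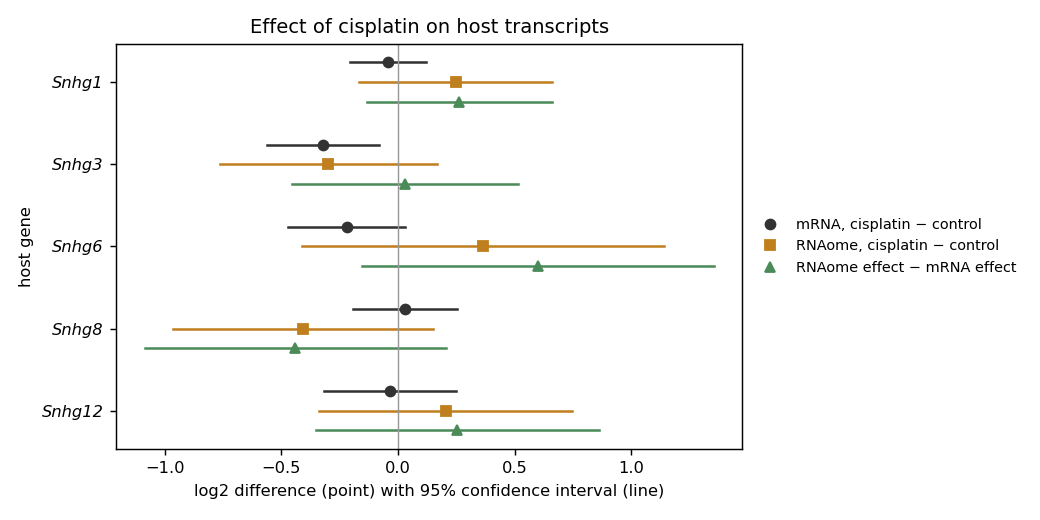
Log2 effect of cisplatin on each host transcript in the mRNA libraries (circles) and the RNAome libraries (squares), and the difference of both effects (triangles), with 95% confidence intervals as lines. The interval of Snhg3 in the mRNA libraries, -0.56 to -0.08, is the one that does not reach 0.

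Per kilobase of row, with the whole span taken for Snhg8, the hosts ranked differently in the assays. For the other hosts the length was the gene span less the region and small RNA rows found inside it. This left 476 bases for Snhg1, 437 for Snhg3, 407 for Snhg6 and 606 for Snhg12. An intron without a row would stay in this length, so it need not be the length of the transcript. In the mRNA libraries the mean level was 98.9 CPM per kilobase for Snhg1 (92.6 to 110 over the 6 libraries), 54.6 for Snhg3 (44.9 to 71.8), 36.3 for Snhg6 (30.0 to 41.3), 31.2 for Snhg12 (25.0 to 35.3) and 27.8 for Snhg8 (24.5 to 30.2). Snhg1 lay above Snhg3, and Snhg3 above Snhg6, in every library, whereas the ranges of Snhg6, Snhg12 and Snhg8 overlapped. In the RNAome libraries Snhg8 led with 453 CPM per kilobase (345 to 780), Snora24 included, ahead of Snhg1 with 13.9 (9.93 to 17.6), Snhg3 with 8.66 (6.78 to 10.8), Snhg12 with 4.21 (2.92 to 4.57) and Snhg6 with 2.97 (1.83 to 4.13). Here the ranges of Snhg1 and Snhg3 met, as did those of Snhg12 and Snhg6.

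Set against the other genes of the joint fit, 4 of the 5 hosts were higher in the RNAome libraries than in the mRNA libraries, where 66.7% of genes differed, 32.3% higher and 34.4% lower. On the log2 scale of that fit (median of all genes -0.04) the level difference was 0.87 ± 0.10 for Snhg1, 1.00 ± 0.12 for Snhg3, 0.80 ± 0.14 for Snhg12 and 7.69 ± 0.20 for Snhg8, each with every RNAome library above every mRNA library. The edgeR adjusted p-values were 1.69e-08, 5.09e-08, 2.81e-05 and 2.28e-21 in that order. How many of all genes separate by assay in this way was not counted, so the separation has no background. Snhg6 differed by 0.15 ± 0.18 (edgeR adjusted p = 0.472) with overlap. Snhg8 less Snora24 was still higher by 5.55 ± 0.17. As a share of all counts of the table, the 4 hosts other than Snhg8 were instead lower in the RNAome libraries. The RNAome share was 0.0549 times the mRNA share for the middle host, ranging from 0.0274 times for Snhg6 to 6.14 times for Snhg8. Most RNAome counts lay in rows other than RefSeq genes.

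Among all rows at the host genes, most RNAome counts lay in rows other than the host transcripts. A region row is a genomic interval named by its coordinates, and 46857 of the 60881 region rows of the RNAome table equal an intron of GENCODE vM1. In Snhg1 the rows with SNORD26, SNORD30 and SNORD31 do so, and those with SNORD25, SNORD27, SNORD28 and SNORD29 do not. The large row of Snhg6, chr1:9932799-9934100, does not either. All of these rows are called introns here, whether or not their ends match that annotation. All rows at the 9 host genes took 4.69% to 11.0% of the RNAome expression counts per library, 8.09% to 11.0% after cisplatin and 4.69% to 8.17% in the controls, with overlap. In the mRNA libraries they took 0.0312% to 0.0342%. These totals include regions that reach beyond a host gene and cannot be assigned to it alone. Such regions took 1.73% to 5.07% of the RNAome counts, mainly the Snhg5 region described below, and 0.0198% to 0.0213% of the mRNA counts. Regions that hold a whole snoRNA took 2.71% to 5.35% of the RNAome counts and 0.00281% to 0.00365% of the mRNA counts. The Snhg1 introns alone took 2.07% to 3.98% of the RNAome counts. These shares depend on which of the authors' tables gives the total. In the abundance tables all rows at the host genes took 6.74% to 10.9% of the RNAome counts, the regions with a whole snoRNA 5.51% to 8.35% (0.0042% to 0.00548% of the mRNA counts) and the Snhg1 introns 4.21% to 6.22%, on nearly the same counts for these introns.

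Intron rows took part of the mRNA counts as well. Over the 6 mRNA libraries the Snhg3 transcript had 1725 counts and its introns 820 and 1096, and the Snhg6 transcript had 1075 counts and its large intron 1023.

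**Figure D3:**
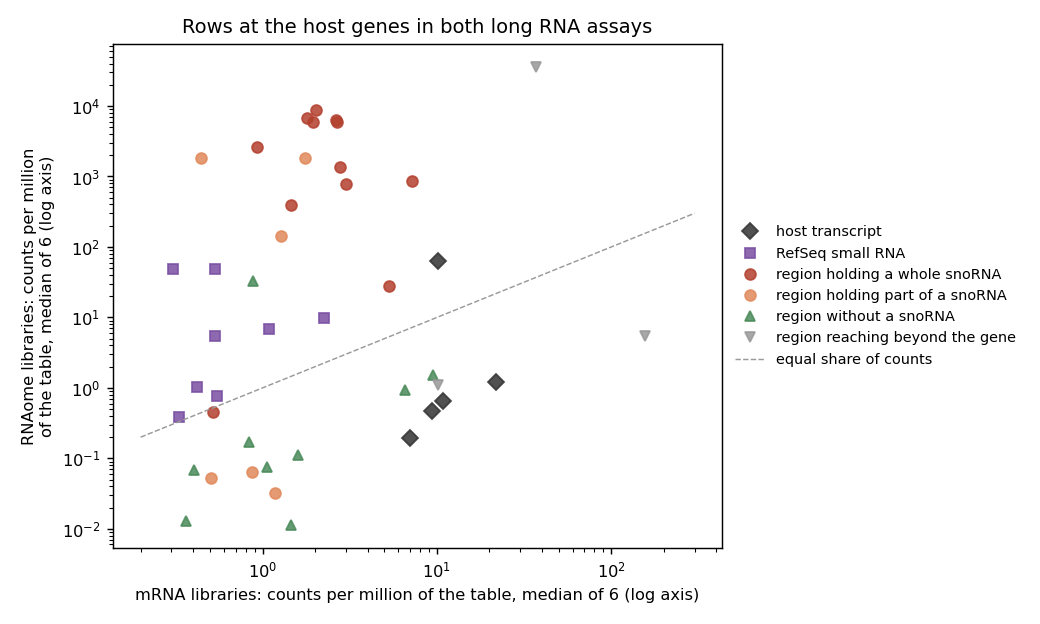
Each row at the host genes with a value in both long RNA assays, by its median CPM of the table total in the mRNA libraries (x axis, log) and the RNAome libraries (y axis, log); the dashed line marks equal shares and symbols mark the kind of row. The regions with a whole snoRNA lie above the line in 11 of 12 cases and 4 of the 5 host transcripts lie below it.

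Of 12 regions with a whole snoRNA, 11 had an RNAome share above that of every mRNA library, with a median ratio of 1351 (0.886 to 4307). The exception was the Snhg11 region, at 0.886. Among the 9 regions without a snoRNA 1 had such an RNAome share, with a median ratio of 0.141 (0.00771 to 37.2). How many of all region rows separate in this way was not counted, so these numbers have no background. The 1 region without a snoRNA that did so, chr19:8800317-8800355 of 39 bases, ends at the base before Snord22. The region chr19:8800482-8800556, which starts at the base after Snord22, had 2 to 11 RNAome counts. In Snhg1 the RNAome counts of the SNORD31 intron chr19:8800014-8800271 were 496211, 635547 and 1163811 after cisplatin and 165961, 598943 and 255889 in the controls, overlapping groups. The SNORD30 intron chr19:8799747-8799974 had 186743 to 775186 RNAome counts and the SNORD29 intron chr19:8799537-8799711 had 164373 to 786706. Their order differed between libraries. The SNORD31 intron led in cisplatin 8.3.3 and 8.5.3 and control 8.5.16, the SNORD30 intron in cisplatin 8.4.3, the SNORD29 intron in control 8.4.16 and the SNORD25 intron in control 8.6.16. The SNORD27 intron chr19:8798974-8799161 of the same gene, chosen after its values were seen, was the lowest of the 7 in every library, with 26900, 38802 and 38599 after cisplatin and 10699, 29109 and 14750 in the controls. In the RNAome small RNA table, which the authors counted from the same libraries, the SNORD27 intron was instead the highest of the 7 in every library, with 4559 to 17398 counts against 1229 to 5401 for the SNORD30 intron. In the separate small RNA libraries the SNORD29 intron was the highest in each, with 26371 to 80554 counts. The introns of 1 transcript thus differed widely in counts and their order depended on the table, while their mRNA shares lay within 0.756 and 3.14 CPM of the table total.

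**Figure D4:**
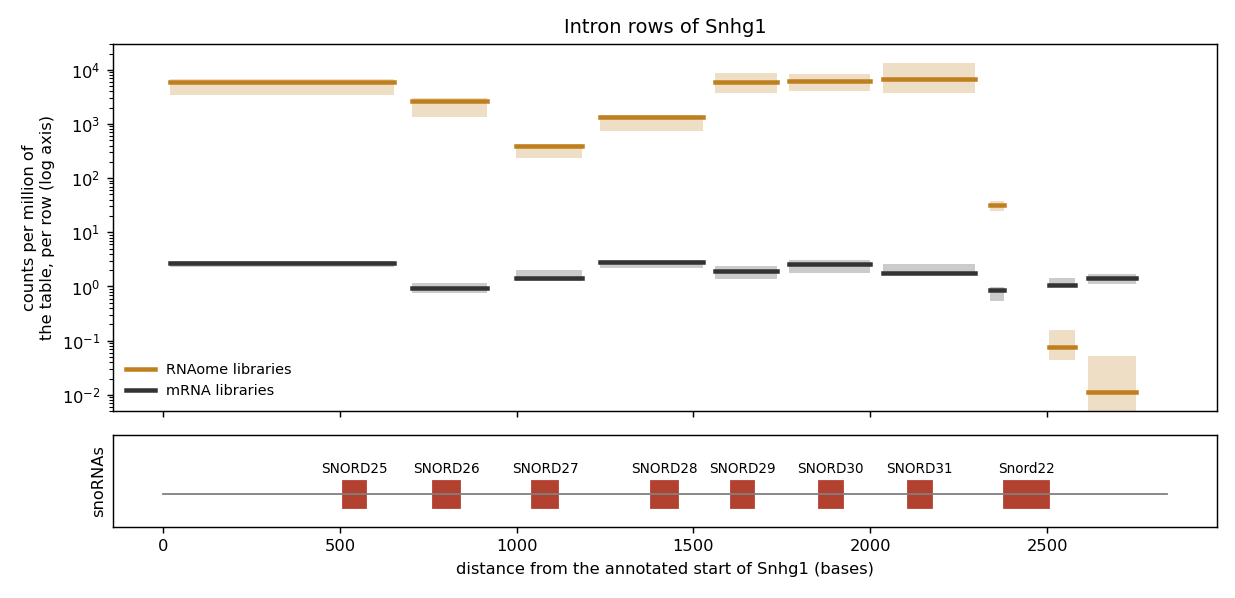
The intron rows of Snhg1 along the gene, as distance in bases from the annotated start, with the median share in CPM of the table total (thick line, log axis) and the range over 6 libraries (band) for each long RNA assay, and the snoRNAs below. The 7 introns with SNORD25 to SNORD31 have RNAome shares far above their mRNA shares, and the last pair of rows (the remainder of the Snord22 intron after that snoRNA, and the final intron) do not; bands that reach 0 are drawn to the foot of the axis.

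Gas5, whose host transcript matched no row, was visible through SNORD77, Snord47 and SNORD81. No row was matched at its other snoRNAs, SNORD74, SNORD75, SNORD24, SNORD44, SNORD78 and SNORD79, so the shares given here leave them out. Gas5 spans chr1:162964732-162968670 on the plus strand, and its matched rows took 0.735% to 1.58% of the RNAome counts of the expression table and 1.5% to 2.47% of those of the abundance table. Among these rows the SNORD81 intron chr1:162968404-162968587 led, with RNAome counts of 619029, 766798 and 1034011 after cisplatin and 233148, 663165 and 375443 in the controls. Its log2 difference was 0.18 ± 0.61 (edgeR adjusted p = 0.959), a spread far wider than the difference. These are the snoRNAs behind the 2 intron rows of Gas5 described here, with their boxes in capitals as above.
SNORD81: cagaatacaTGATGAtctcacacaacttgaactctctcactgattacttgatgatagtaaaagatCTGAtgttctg
SNORD77: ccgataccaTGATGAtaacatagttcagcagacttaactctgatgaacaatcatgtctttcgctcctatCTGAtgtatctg
Both boxes were found in 5 of the 9 snoRNAs of Gas5 (55.6%).

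The counts of a snoRNA could be spread over more than 1 row. The RefSeq entries of Snord47 in Gas5 and of Snord99 in Snhg12 are shorter than the GENCODE genes, and the bases of the RefSeq entries are in capitals.
Snord47: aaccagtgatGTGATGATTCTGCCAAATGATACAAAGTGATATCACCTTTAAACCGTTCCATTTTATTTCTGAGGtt
Snord99: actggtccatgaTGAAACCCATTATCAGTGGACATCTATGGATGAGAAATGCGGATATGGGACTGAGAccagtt
The entry of Snord47 covers 65 of 77 bases and leaves out the first 10, which fall in the region row before it. That region row had 170634, 165973 and 264165 RNAome counts after cisplatin and 60458, 132515 and 64650 in the controls, while the RefSeq row of Snord47 had 33, 82 and 47 and then 32, 56 and 37. The entry of Snord99 covers 56 of 74 bases and leaves out the first 12. In the small RNA libraries the RefSeq row of Snord99 did hold most counts, 25194, 32650 and 13658 after cisplatin and 40591, 19974 and 37804 in the controls. Snord87 of Snhg6 was entered in its own RefSeq row in the RNAome libraries too, with 9592 to 40446 counts. The next most abundant row of Snhg12 after the Snord99 region was chr4:131866131-131866221, which holds the start of Snora61, with 5137 to 13567 RNAome counts.

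The region row with the first bases of Snord99, chr4:131866420-131866617, was the single row of 35 at the host genes whose RNAome libraries separated by treatment, where 17.1% of all rows did so (8.90% higher). Its RNAome counts were 201867, 239992 and 198854 after cisplatin and 33507, 96923 and 61145 in the controls. On the TMM scale of all rows these were 2107, 1919 and 3077 CPM against 1090, 1531 and 1160 CPM, every cisplatin library higher. The log2 difference was 0.91 ± 0.45 (-0.04 to 1.86, edgeR adjusted p = 0.448). In the RNAome small RNA table the row had 61, 84 and 45 counts after cisplatin and 8, 19 and 15 in the controls, and after scaling the groups overlapped, with a log2 difference of 1.96 ± 0.65 (edgeR adjusted p = 0.0748). It passed there without cisplatin 8.3.3. In the small RNA libraries it had 2426, 490 and 264 counts against 753, 328 and 2408, overlapping, with 0.33 ± 0.78 on the log2 scale (edgeR adjusted p = 0.922).

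Over all rows inside the host genes other than the host transcripts, 0 of 35 passed in the RNAome libraries (background 1.31%), 0 of 24 in the RNAome small RNA table (2.82%) and 0 of 25 in the small RNA libraries (3.65%), all by edgeR. At an unadjusted p under 0.05 the same fits had 2782, 926 and 2152 rows over the whole tables. Snord87 came nearest in the small RNA libraries, with 1815, 2109 and 1144 counts after cisplatin and 2129, 1033 and 2095 in the controls. After scaling it was higher in every cisplatin library, as were 12.4% of all rows there, by 0.37 ± 0.15 on the log2 scale (edgeR adjusted p = 0.225).

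In the mRNA libraries 5 of 37 such rows passed, 1 higher and 4 lower, over a background of 19.8% of 46404 rows (9.95% higher, 9.89% lower). The groups did not overlap in 10 of the 37, 3 higher and 7 lower, against 34.5% of all rows. Both calls at Snhg4 were lower, and its most abundant row did not pass. That row, a region of 55641 bases that begins far before Snhg4 and ends inside a SNORA74 snoRNA of it, had 3014 to 4908 mRNA counts and differed by 0.04 ± 0.05 on the log2 scale (edgeR adjusted p = 0.647), with overlap. Its mRNA counts summed to 24157 in the expression table and 5149 in the abundance table, and with this span it cannot be assigned to Snhg4 alone. A region of 2393 bases inside Snhg4 without a snoRNA had 223, 261 and 145 counts after cisplatin and 243, 311 and 309 in the controls, or 8.32, 8.87 and 6.69 CPM against 12.2, 10.1 and 12.1 CPM. Every cisplatin library was lower, by -0.51 ± 0.11 on the log2 scale (edgeR adjusted p = 0.00275). A second region of 4930 bases, which runs past the end of Snhg4 and cannot be assigned to it alone, differed by -0.55 ± 0.10 (edgeR adjusted p = 0.000509). Both kept their call when each library was left out in turn. Snora74a, the H/ACA snoRNA of Snhg4 with a row of its own, had 1146 to 3324 RNAome counts and did not pass there (-0.31 ± 0.23 on the log2 scale, edgeR adjusted p = 0.670).

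The 2 other lower rows were introns of Snhg3 and Gas5. The Snora73a intron of Snhg3, chr4:131908614-131909511, had mRNA levels of 7.05, 5.44 and 6.09 CPM after cisplatin and 8.58, 7.37 and 8.50 CPM in the controls. Every cisplatin library was lower, as for the Snhg3 transcript, and the log2 difference was -0.39 ± 0.12 (edgeR adjusted p = 0.0235). The call was lost without cisplatin 8.4.3 (0.150) or 8.5.3 (0.0700) and without control 8.4.16 (0.0852) or 8.6.16 (0.0555). In the RNAome libraries the same intron, which then carries the snoRNA, differed by 0.30 ± 0.41 (edgeR adjusted p = 0.854). Both snoRNAs of Snhg3 are 205 bases long and share 198 of them (96.6%), with the 7 that differ in capitals.
Snora73a: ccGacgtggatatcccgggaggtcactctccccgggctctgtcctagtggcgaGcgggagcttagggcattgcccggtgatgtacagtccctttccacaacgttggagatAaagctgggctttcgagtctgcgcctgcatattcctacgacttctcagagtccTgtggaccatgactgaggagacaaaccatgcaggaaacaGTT
Snora73b: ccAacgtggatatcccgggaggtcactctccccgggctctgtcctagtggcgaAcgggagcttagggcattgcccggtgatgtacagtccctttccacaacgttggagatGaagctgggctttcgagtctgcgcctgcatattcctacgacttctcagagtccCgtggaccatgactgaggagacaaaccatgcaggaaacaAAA
Reads of near-identical copies can be split between them, so the RNAome counts of 15842 to 81768 for the Snora73a intron and 723 to 3339 for the Snora73b intron are uncertain for each alone.

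The SNORD77 intron of Gas5, chr1:162967679-162968125, had mRNA levels of 2.50, 2.72 and 2.35 CPM after cisplatin and 3.31, 3.41 and 3.68 CPM in the controls. The groups did not overlap, and the log2 difference was -0.45 ± 0.15 (edgeR adjusted p = 0.0378). This call rested on all 6 libraries, since leaving out any 1 of them gave adjusted p-values of 0.0618 to 0.128. The SNORD81 intron of Gas5 also lay lower in every cisplatin mRNA library, by -0.37 ± 0.18 on the log2 scale, and did not pass (edgeR adjusted p = 0.180). The large intron of Snhg6, chr1:9932799-9934100, had 172, 156 and 128 mRNA counts after cisplatin and 139, 209 and 219 in the controls. After scaling it was lower in every cisplatin library, at 6.42, 5.30 and 5.90 CPM against 6.97, 6.78 and 8.58 CPM. It missed the threshold at -0.34 ± 0.12 on the log2 scale (edgeR adjusted p = 0.0543).

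The single higher row lay in Snhg11, a host known for its expression in neurons. The region chr2:158202809-158206506, which holds a pair of SNORA71 snoRNAs, had 19, 31 and 16 mRNA counts after cisplatin and 5, 10 and 6 in the controls. Its levels were 0.709, 1.05 and 0.738 CPM against 0.251, 0.325 and 0.235 CPM, without overlap. The log2 difference was 1.60 ± 0.33 (0.90 to 2.30, edgeR adjusted p = 0.00156), and the call was kept when each library was left out in turn. In the RNAome libraries the row had 42, 57 and 42 counts after cisplatin and 3, 31 and 11 in the controls, with 0.76 ± 0.36 on the log2 scale (edgeR adjusted p = 0.432). The other row at Snhg11, chr2:158211882-158235588, which runs past its end, had 0 to 3 RNAome counts and was not tested.

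**Figure D5:**
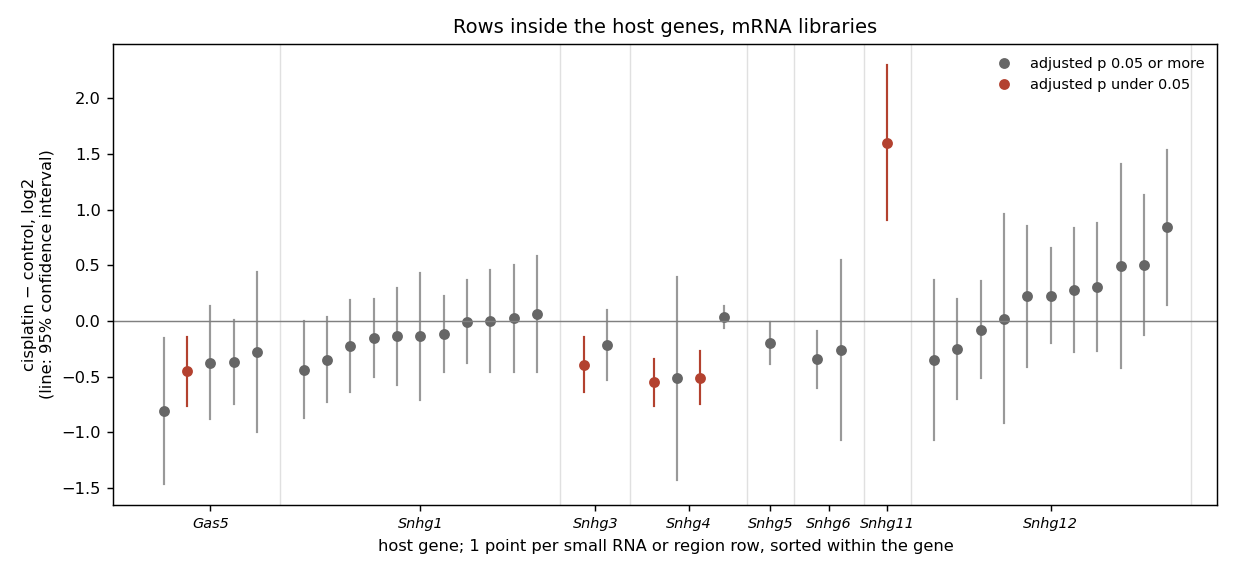
Log2 difference between cisplatin and control in the mRNA libraries for each small RNA or region row at the host genes, sorted within each gene, with 95% confidence intervals as lines. The 5 rows that passed are coloured, 4 below 0 and the Snhg11 region at 1.60 above it; the others did not pass.

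For Snhg5 the only row was a region of 65622 bases, chr9:88377236-88442857, that holds both SNORD50 snoRNAs of the gene and reaches far beyond it. It took 1.73% to 5.07% of the RNAome expression counts, 3.56% to 5.07% after cisplatin and 1.73% to 3.61% in the controls, with overlap. Its summed RNAome count was 15439715 in the expression table and 3092876 in the authors' abundance table, a ratio of 4.99, so its share depends on which of the tables is read. The log2 difference was 0.50 ± 0.76 (edgeR adjusted p = 0.874).

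The annotated starts of the hosts were searched for a TOP-like start, a C followed by at least 4 pyrimidines, on the gene strand at base 251 of the 300-base RefSeq promoter entries (build GRCm38.p6). Entries were matched for 7 of the 9 hosts, and 2 of them (28.6%) had such a start, Gas5 at its second annotated start and Snhg8, against 813 of 27025 genes (3.01%). Snhg12 starts with a T in a run of 6 pyrimidines and does not count under this rule. These windows hold 20 bases before the start and the first 28 of the transcript, with the pyrimidine run in capitals, and each matched NCBIM37 once, at chr1:162965277-162965324 (plus), chr3:123211227-123211274 (minus) and chr4:131864573-131864620 (plus).
Gas5 start: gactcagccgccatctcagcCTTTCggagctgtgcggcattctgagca
Snhg8 start: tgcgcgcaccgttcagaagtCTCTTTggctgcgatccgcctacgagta
Snhg12 start: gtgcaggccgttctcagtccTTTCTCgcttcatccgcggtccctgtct
No match says only that these letters are not at the annotated start.

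Lists of genes of the same biology were read beside the members in the mRNA libraries, where 18.0% of all genes rose and 19.2% fell. Of 8 other noncoding snoRNA hosts tested 0 rose and 3 fell. These were Rian, an imprinted host of C/D snoRNAs (-0.47 ± 0.09), Dancr (-0.42 ± 0.12) and Snhg16 (-0.24 ± 0.09, edgeR adjusted p = 0.000794, 0.0106 and 0.0486). Of 43 protein-coding hosts 0 rose and 13 fell, with a median log2 difference of 0.00. Among them were Wdr43, of the small-subunit processome (-0.44 ± 0.05), Ncl, nucleolin (-0.29 ± 0.04), and Eif4a2, a translation helicase (-0.48 ± 0.07).

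The box C/D core proteins Nop56 and Nop58 fell by 0.32 and 0.34 on the log2 scale, 2 of 4 core proteins. Of the H/ACA core 1 of 4 fell, the pseudouridine synthase Dkc1 (-0.21 ± 0.05), and of 11 assembly factors 4 fell, Naf1, Nolc1, Rpap3 and Shq1, by 0.22 to 0.32. Of 13 NMD factors 2 rose and 5 fell, among the latter Smg1, the kinase of Upf1 (-0.38 ± 0.05), and Smg6, the NMD endonuclease (-0.47 ± 0.07). Of 7 exon junction complex genes 2 fell, Rnps1 and Acin1. Of 14 messages known as NMD targets 3 rose and 9 fell, led by Atf4 (-0.93 ± 0.07, edgeR adjusted p = 4.05e-07). Of 9 regulators of TOP translation 7 fell, among them Rptor (-0.87 ± 0.06), Larp1, which binds TOP messages (-0.45 ± 0.05), Eif4e (-0.41 ± 0.05) and Mtor (-0.32 ± 0.06). Of 10 stem cell markers 8 fell, and 0 of 10 feeder markers and 0 of 4 markers of differentiated cells passed. In the RNAome libraries 1 gene of all these lists passed, Atf4 (-0.80 ± 0.15, edgeR adjusted p = 0.00706).

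The genes whose log2 CPM profile over the 12 long RNA libraries, centred within each assay, was most like the mean profile of the 5 members were Snord72 (Pearson r = 0.879), Kdelr1 (0.864), Denr (0.855), Mrpl1 (0.851) and Crbn (0.841). This is a description over libraries that share depth and treatment. Among the members themselves the 10 pairwise correlations ran from -0.788 (Snhg8 with Snhg12) to 0.297 (Snhg6 with Snhg8), so they did not share a common profile. How closely each member follows the mean profile was not computed.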

How the data were processed

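The members and all gene lists were chosen with earlier results of these data known. The authors deposited, per the file headers, tables of raw read counts with 1 column per library for each assay. Expression and abundance tables hold RefSeq rows and genomic region rows. No source used here says how the 2 kinds differ. The expression tables were used, with the abundance tables as an alternative. Bowtie, TopHat, edgeR and mm9 are named, without versions or roles, in the submitters' processing notes.

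RefSeq rows were matched to symbols (18274 of 18943 in the mRNA table, 17133 of 17787 in the RNAome table). Per gene 1 row was kept, chosen first by presence in both tables and then by highest mean CPM over them. Counts were tested with edgeR 4.0.16 (R 4.3.3): filterByExpr, TMM scaling, quasi-likelihood test, Benjamini-Hochberg adjustment over all features tested, threshold 0.05. The cisplatin and interaction fits of the long RNA tables were checked on simulated counts with the same spread setting for every row. That check does not cover rows of wider spread, such as many RNAome rows, and the small RNA and level fits were not simulated. Rows inside the host genes were tested in fits of all rows. Alternatives were DESeq2 1.42.0, RLE scaling, no filter on low counts, the abundance tables, all rows, the transcript chosen within each table, each library left out, the sample code as a replicate block and, added after seeing the data, Snhg8 less Snora24. Intervals are 95% confidence intervals. Depth ran from 1587446 to 4515956 counts in the RNAome small RNA tables and from 4826269 to 13428891 in the small RNA libraries.

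The text names all members, their called rows and the 2 most abundant rows of each member, called genes of the other lists (at most 4 per list and assay), and the 5 genes of the most similar profile, leaving out clone and model names. Positions of Gas5, Snhg1, Snhg3, Snhg5, Snhg8, Snhg11 and Snhg12 are those of their RefSeq promoter entries matched to NCBIM37. snoRNA positions and sequences come from GENCODE vM1 and that genome.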

Additional observations from a re-analysis of the deposited data

How the results depend on the processing

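Over single transcripts and rows, 116 values kept their direction and side of the threshold, 1 lost its call and 2 changed sign; with libraries left out these numbers were 180, 14 and 16. The Snhg3 call in the mRNA libraries was lost with all rows tested, where 0 members and 9207 features passed, and leaving out each library gave 0 to 1 members called and log2 values of -0.41 to -0.18 for Snhg3. With all rows the RNAome fit called 310 features, and leaving out libraries gave 78 to 198. In the mRNA libraries the left-out fits crossed 0 for Snhg1 (-0.11 to 0.031), Snhg8 (-0.034 to 0.11) and Snhg12 (-0.20 to 0.064), and in the RNAome libraries for Snhg8 (-0.63 to 0.013) and Snhg12 (-0.016 to 0.36). The difference between assays for Snhg3 was -0.024 with RLE scaling and -0.038 from the abundance tables, and ran from -0.14 to 0.12 with libraries left out. That of Snhg12 ran from -0.023 to 0.42, and the level difference of Snhg6 from -0.087 to 0.23. For the difference between assays the left-out fits called 0 to 42 genes. With the sample code as a replicate block 13 genes passed there, and 8623 against 8712 for the level, and no member's call changed in either fit. The sources used here do not say that a code marks the same RNA in both assays. Over 13069 genes the deviations from the group means of same-coded mRNA and RNAome libraries correlated by 0.0389 to 0.17 (Pearson), over 0.1 for 2 of 6 codes, and all 6 mRNA libraries correlated best with their own code within the group, a hint from the data and not from the design.

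At the host genes, left-out fits called 3 to 7 mRNA rows. Without a filter the RNAome fit called 567 features of the whole table and left-out fits 69 to 255. The RNAome small RNA table gave 514 without a filter, and with libraries left out 92 to 846 features and 0 to 1 rows at the host genes. In the small RNA libraries left-out fits called 0 to 665 features, so the counts of that assay rest on single libraries. The causes were not tested. RNAome counts were low, 6 to 138, for the hosts other than Snhg8, whose standard error was similar at 1742 to 6575 counts.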
